A study of Mus musculus with 12 samples.

Results

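The Wnt pathway module comprised 53 of the 17901 genes in the deposited table. Its members were taken by name: every gene symbol that begins with Wnt, Fzd, Dkk or Sfrp followed by a digit, together with a fixed set of 16 receptors, effectors and regulators (Lrp5, Lrp6, Axin1, Axin2, Lef1, Tcf7, Tcf7l1, Tcf7l2, Ctnnb1, Apc, Rnf43, Znrf3, Porcn, Wls, Frzb and Sp5). The rule uses names only, but it was chosen with earlier results of these data known. By role they were 19 Wnt ligands, 2 genes of ligand processing, 10 Frizzled receptors, 2 co-receptors, 2 genes of receptor turnover, 8 secreted antagonists, 4 genes of β-catenin and its destruction complex, 4 TCF/LEF factors and the target factor Sp5. The remaining member, Fzd10os, met the name rule but is a transcript of the opposite strand whose annotated start lies 418 bases from that of the receptor gene Fzd10, and it was not counted as a receptor.

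RNA had been sequenced from TT2, an embryonic stem (ES) cell line of the mouse, in 4 groups of 3 libraries. Double knockout cells (DKO), which lack both Rlf and Zfp292, and wild-type cells (WT) were each sampled undifferentiated in serum/LIF, and each after 72 h in the same medium with LIF left out and 5 µM retinoic acid (RA) added. RA, the loss of LIF and the time in that medium changed together, so their parts cannot be told apart. The words after RA name them jointly. Rlf and Zfp292 encode zinc finger proteins, and the series' title links them to bivalent genes and the CoREST complex. Both genotypes share the TT2 background and the feeder-free gelatin culture, and the labels do not say how the knockout was made, whether the DKO cells were 1 clone, or whether the 3 biological replicates were separate cultures, so p-values measure only the spread between these libraries.

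Wnt proteins are lipid-modified secreted ligands that bind Frizzled receptors with the co-receptors Lrp5 or Lrp6, which stops the destruction complex of Axin and Apc from degrading β-catenin. Stabilised β-catenin then joins TCF/LEF factors at target genes, while other Wnts act through Frizzleds without β-catenin in cell polarity and movement. In mouse ES cells β-catenin signalling supports self-renewal, largely by relieving repression by Tcf7l1, and in the embryo Wnt ligands pattern the primitive streak, the neural tube and the limb.

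Loss of both transcripts was visible in every DKO library: Rlf ranged over 0 to 3.52 normalised counts in the 6 DKO libraries, against 2472 to 3701 in the 6 WT libraries, and Zfp292 was 0 in all DKO libraries, against 2859 to 5273 in the WT libraries. Normalised counts are reads divided by a size factor of the library, and 31410028 to 40236799 reads in genes were recovered from 11 libraries. The sum of 10 ES cell markers was 133750 to 138210 in DKO and 147600 to 152140 in WT in serum/LIF. None was at 0 there, and 5 were lower and none was higher in DKO. The sum after RA was 12187 to 12935 in DKO and 6105 to 6618 in WT, and all 10 were higher in DKO. After RA, 8 of 10 neural progenitor markers and 9 of 10 neuron markers were lower in DKO, where 20.7% of all tested genes were lower. The other 2 progenitor markers and 1 neuron marker were higher. Sums were 13944 to 14216 in DKO and 17007 to 17805 in WT for progenitors and 3657 to 3888 in DKO and 7233 to 8116 in WT for neurons. The neuron sums were larger in serum/LIF, at 21633 to 22123 in DKO and 20749 to 22567 in WT. There, 4 neuron markers were higher and 3 were lower in DKO. In serum/LIF, 5 progenitor markers were higher and 1 was lower in DKO, with sums of 7643 to 7871 in DKO and 4786 to 4843 in WT. In serum/LIF, 8 of 10 fibroblast markers were higher in DKO, with sums of 22347 to 23654 in DKO and 7496 to 7551 in WT, and after RA 5 were higher, with sums of 63848 to 66494 in DKO and 50239 to 51867 in WT. Of 8 primitive streak and mesoderm markers tested, 4 were higher and 1 was lower in DKO in serum/LIF and 3 were higher and 1 was lower after RA. The sums over the 9 in the table were 711 to 802 in DKO and 398 to 412 in WT in serum/LIF and 1329 to 1509 in DKO and 1901 to 2097 in WT after RA. Of 10 endoderm markers, 6 were higher and 1 was lower in DKO in each condition, with sums of 11074 to 11609 in DKO and 7312 to 7638 in WT in serum/LIF and of 33094 to 33805 in DKO and 27459 to 29308 in WT after RA. Of 10 trophoblast markers, 4 were higher and none was lower in DKO in serum/LIF, and 4 were higher and 1 was lower after RA. Trophoblast sums were 5807 to 6875 in DKO and 4750 to 4896 in WT in serum/LIF. After RA they were 15154 to 15894 in DKO and 14128 to 14973 in WT. In serum/LIF 33.2% of all tested genes were called different, 17.8% higher and 15.4% lower in DKO. After RA 42.7% were, 22% higher and 20.7% lower. The trophoblast counts in both conditions, and the mesoderm count after RA, were near these shares. The part of these cell state differences in the Wnt pathway results was not tested, and in bulk RNA fewer cells of a type and less RNA per cell cannot be told apart.

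The 250 bases upstream of the annotated start are shown for 7 genes, because they are the pathway's 2 classic feedback targets, the gene of ligand export with the clearest genotype difference in serum/LIF, and 2 pairs of neighbouring ligand genes that are described further on. The windows were read from RefSeq promoters of build GRCm38.p6, which held 45 windows for 35 of the 53 members. For Axin2 (chr11:108920099-108920348, plus strand), the scaffold that is induced by the pathway and restrains it, and Sp5 (chr2:70474673-70474922, plus strand), a zinc finger factor induced by β-catenin, capitals mark the TCF/LEF core motif ATCAAAG on either strand. The Sp5 window held it once, on the minus strand with its first base 104 bases upstream, and the Axin2 window did not hold these letters.
Axin2: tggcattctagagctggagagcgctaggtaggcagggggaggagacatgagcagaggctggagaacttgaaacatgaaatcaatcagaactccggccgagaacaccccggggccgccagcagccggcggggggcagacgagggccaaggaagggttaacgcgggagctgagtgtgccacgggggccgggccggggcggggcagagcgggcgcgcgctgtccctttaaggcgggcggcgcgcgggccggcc
Sp5: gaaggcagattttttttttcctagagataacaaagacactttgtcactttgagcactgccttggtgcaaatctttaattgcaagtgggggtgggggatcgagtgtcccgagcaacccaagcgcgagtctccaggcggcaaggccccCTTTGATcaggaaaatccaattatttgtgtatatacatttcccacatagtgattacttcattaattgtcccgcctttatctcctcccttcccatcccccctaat
The core motif lay in 3 of the 45 member windows (6.67%), those of Sp5, Wnt11 and Wnt5b, against 3.21% of the 32851 windows of all genes. For Wnt11 and Wnt5b it lay upstream of an alternative start. Their windows at the start in the deposited annotation did not hold it. The nuclear receptor half-site AGGTCA lay in 2 member windows (4.44%), those of Tcf7 and Wnt16, against 14.0% of all windows, and no member window held both motifs. The Tcf7 window with the half-site was likewise that of an alternative start. In the 5 sequences that follow capitals mark CpG dinucleotides, of which the member windows had a median of 17 and all windows a median of 6, at a median GC content of 66.4% and 52.4%. They are Wls (chr3:159839400-159839649, plus strand), the divergent neighbours Wnt9b (chr11:103749822-103750071, minus strand) and Wnt3 (chr11:103773925-103774174, plus strand), and the divergent neighbours Wnt10b (chr15:98778151-98778400, minus strand) and Wnt1 (chr15:98789607-98789856, plus strand).
Wls: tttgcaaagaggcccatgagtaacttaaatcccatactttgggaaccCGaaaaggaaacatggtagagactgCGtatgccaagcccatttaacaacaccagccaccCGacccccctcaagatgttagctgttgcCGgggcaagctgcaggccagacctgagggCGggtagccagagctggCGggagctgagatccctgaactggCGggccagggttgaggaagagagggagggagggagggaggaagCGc
Wnt9b: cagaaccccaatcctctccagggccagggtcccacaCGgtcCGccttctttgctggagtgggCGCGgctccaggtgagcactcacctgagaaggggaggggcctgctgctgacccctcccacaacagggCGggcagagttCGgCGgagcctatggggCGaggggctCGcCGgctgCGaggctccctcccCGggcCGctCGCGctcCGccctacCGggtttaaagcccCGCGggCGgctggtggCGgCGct
Wnt3: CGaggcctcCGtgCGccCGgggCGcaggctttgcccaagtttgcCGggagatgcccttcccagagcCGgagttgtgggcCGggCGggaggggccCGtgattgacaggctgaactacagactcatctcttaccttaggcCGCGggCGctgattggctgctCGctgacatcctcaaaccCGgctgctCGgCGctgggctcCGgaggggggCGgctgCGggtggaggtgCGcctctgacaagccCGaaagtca
Wnt10b: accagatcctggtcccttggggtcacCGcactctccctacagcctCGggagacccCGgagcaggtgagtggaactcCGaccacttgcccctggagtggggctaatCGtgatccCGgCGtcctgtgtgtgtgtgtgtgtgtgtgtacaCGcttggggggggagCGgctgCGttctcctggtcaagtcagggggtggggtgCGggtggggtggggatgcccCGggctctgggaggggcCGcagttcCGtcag
Wnt1: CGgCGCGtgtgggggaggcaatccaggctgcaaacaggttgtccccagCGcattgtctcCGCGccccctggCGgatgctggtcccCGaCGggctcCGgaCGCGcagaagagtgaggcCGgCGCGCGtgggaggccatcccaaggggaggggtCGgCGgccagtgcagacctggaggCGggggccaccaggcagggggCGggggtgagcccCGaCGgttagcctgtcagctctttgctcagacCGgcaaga
The Wnt9b and Wnt1 windows held 22 and 23 CpG dinucleotides, and the Wls window held 8.

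Levels of different genes were compared as normalised counts per kilobase of exon, and the family sums showed where ligands, receptors and antagonists moved between the groups. The summed ligand level of the 19 Wnt genes was 308 ± 17.1 in DKO and 236 ± 18.7 in WT in serum/LIF, and 743 ± 25.7 in DKO and 543 ± 18.03 in WT after RA (SD, n = 3 each). The 10 Frizzled genes summed to 2438 ± 58.8 in DKO and 2190.0 ± 49.5 in WT in serum/LIF, but to 5472 ± 42.5 in DKO and 7370.0 ± 97.1 in WT after RA. The summed level was therefore above WT in DKO for both families in serum/LIF, and after RA it was above WT for the ligands and below WT for the receptors, in each case with no overlap between the libraries. The Sfrp genes and Frzb, whose products bind Wnts, summed to 868 ± 30.1 in DKO and 926 ± 31.6 in WT in serum/LIF, where the libraries overlapped, and to 566 ± 29.4 in DKO and 1140.0 ± 58.6 in WT after RA. These sums were not tested.

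The make-up of each family also shifted. Wnt8a, an early ligand of the primitive streak, held 28.0% of the summed ligand level in DKO and 35.6% in WT in serum/LIF, and 6.55% in DKO and 1.62% in WT after RA. Wnt9a, a ligand of joint and limb development, held 28.0% of it in DKO and 18.6% in WT after RA. Wnt5a, the main ligand of cell movement in the embryo, held 11.7% in DKO and 26.4% in WT after RA, so the leading ligand by level per kilobase differed between the genotypes in that condition. Among receptors, Fzd7 held 36.8% in DKO and 40.5% in WT in serum/LIF and was the leading Frizzled there, and Fzd2 led after RA with 46.6% in DKO and 49% in WT. Fzd5 held 18% in DKO and 23.6% in WT in serum/LIF and 1.35% in DKO and 0.683% in WT after RA. Across the module Ctnnb1, which encodes β-catenin, had the highest level per kilobase in all 4 groups, 5770.0 ± 96.1 in DKO and 5536 ± 37.6 in WT in serum/LIF.

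Of the 53 members, 49 passed the filter of 10 normalised counts in at least 3 libraries and were tested, and Wnt2, Wnt8b, Wnt10a and Wnt16 fell below it. Fold changes are on the scale log2(value + 1), with the standard error (SE) of a limma fit to all tested genes, and calls were made where the Benjamini-Hochberg adjusted p over those genes was under 0.05. In serum/LIF, 17 members were higher and 4 were lower in DKO than in WT, which is 42.9% of those tested, where 33.2% of all 15750 tested genes were called, 17.8% higher and 15.4% lower. The higher members were Wnt3, Wnt4, Wnt5b, Wnt7b, Wnt9b, Wls, Fzd1, Fzd2, Fzd3, Fzd6, Fzd8, Fzd10, Lrp5, Frzb, Apc, Axin2 and Lef1, and the lower members were Fzd5, Sfrp2, Sfrp5 and Tcf7. The DKO and WT libraries did not overlap for 23 of the 49 members, against 43.9% of all tested genes. The median log2 fold change was 0.19 over the members and -0.005 over all genes. After RA, 16 members were higher and 11 were lower in DKO, 55.1% of those tested, where 42.7% of all genes were called, 22% higher and 20.7% lower, and the medians were 0.12 over the members and 0.008 over all genes. The libraries of the genotypes did not overlap for 32 members, against 54.5% of all genes. Without replicate 2 of WT after RA, 14 were higher and 11 lower.

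The members did not move as a block across the 2 conditions, which share no library. Apc, Fzd8, Lef1, Wnt3, Wnt7b and Wnt9b were higher in DKO in both, and Sfrp2 was lower in both. Wnt9b passed the filter only through its RA libraries, and its serum/LIF call rests on 10 reads in DKO and 0 in WT. Fzd1, Fzd2, Fzd3 and Fzd6 were higher in DKO in serum/LIF and lower after RA, and Fzd5 and Tcf7 were lower in serum/LIF and higher after RA. The interaction, the DKO over WT change seen after RA less the one seen in serum/LIF, was called for 24 of the 49 members, 8 higher and 16 lower, where 30.8% of all tested genes were called, 14.8% higher and 16% lower. It included all 6 members whose called direction was opposite in the 2 conditions. That adds no separate evidence, since 2 called effects of opposite sign in the same fit nearly fix a called difference.

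**Figure D1:**
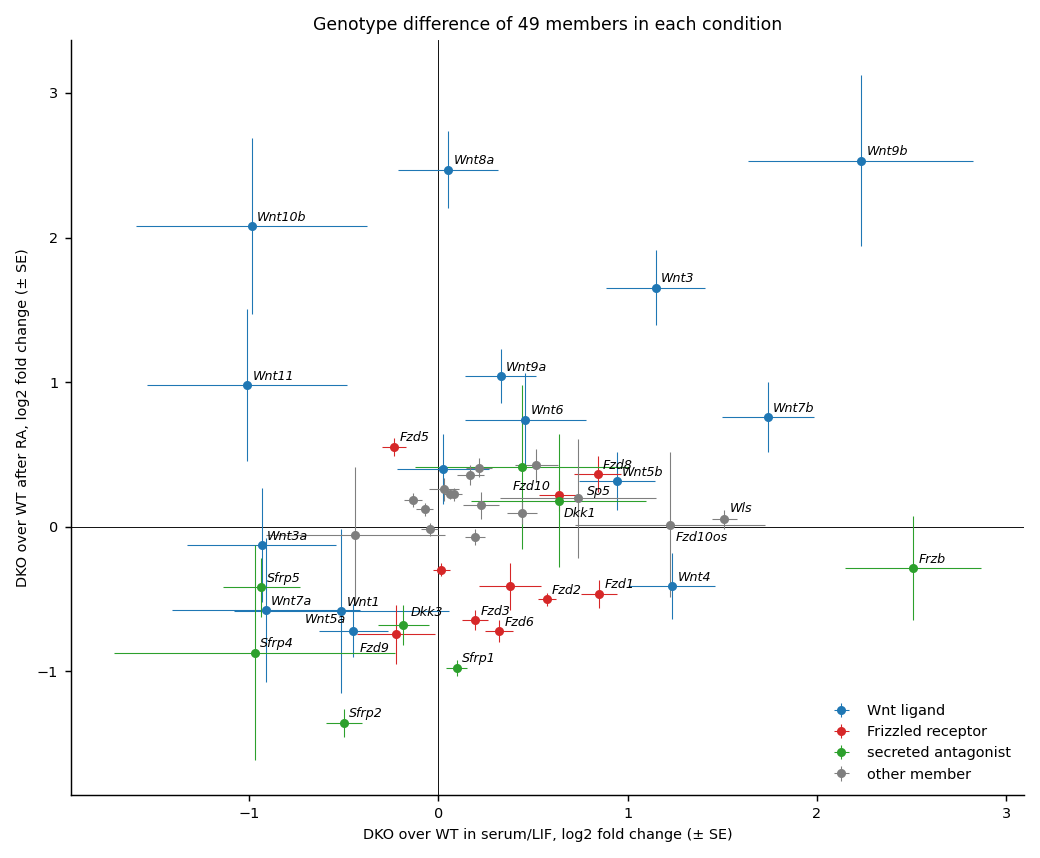
Log2 fold change of DKO over WT in serum/LIF (horizontal axis) against that after RA (vertical axis) for the 49 tested members, with whiskers of 1 SE from the limma fit and colours by role. Most Frizzled genes lie to the right of zero and below it, such as Fzd1 at 0.85 and -0.46, while Wnt3 and Wnt9b lie high on both axes and Wnt8a on the vertical axis. The serum/LIF value of Wnt9b rests on 10 reads in DKO and 0 in WT.

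Among the ligands, 15 of the 19 genes were tested, and 5 were higher and none was lower in DKO in serum/LIF, a share near the 33.2% of all tested genes that were called. Wnt7b, a ligand of lung and kidney epithelium, had 124, 144 and 115 normalised counts in the DKO libraries, against 38.2, 36.5 and 37.4 in the WT libraries. Every DKO library was more than 3 times the level of any WT library, a log2 fold change of 1.74 ± 0.24, adjusted p = 4.36e-06. The gene overlaps AU022754 on the opposite strand, and the part of that overlap in the Wnt7b counts was not tested. Wnt4, known for kidney and gonad development, had 102, 119.7 and 112 in DKO and 53.5, 36.5 and 51.4 in WT, with all DKO libraries above all WT libraries (1.24 ± 0.23, adjusted p = 0.000146). Wnt3, which the mouse embryo needs to form a primitive streak, had 133, 176 and 158 in DKO and 64.9, 81.7 and 62.7 in WT, again without overlap (1.15 ± 0.26, adjusted p = 0.00133). Wnt5b had 80.3, 79.8 and 128 in DKO and 66.8, 46.2 and 36.5 in WT, where the lowest DKO library was 79.8 and the highest WT library 66.8 (0.94 ± 0.20, adjusted p = 0.00074). The fifth, Wnt9b, a ligand of kidney tubule formation, had 10 reads over the 3 DKO libraries and 0 over the 3 WT libraries, at least 3.89-fold higher with 3 counts standing in for 0. Its call was lost when only the serum/LIF libraries were fitted (adjusted p = 0.0915) and with a pseudocount of 5 (adjusted p = 0.0682), and over its 20 alternatives the adjusted p ran between 0.00188 and 0.0915.

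After RA, 6 ligand genes were higher and Wnt5a was lower in DKO, and these 7 of 15 were near the 42.7% of all tested genes that were called. Wnt8a had 83.4, 79.9 and 91.3 normalised counts in the DKO libraries, against 9.91, 24.1 and 12.6 in the WT libraries, 5.47-fold on the group means (2.47 ± 0.27, adjusted p = 5.65e-08). In serum/LIF the same gene had 141, 168 and 143 in DKO and 141, 115 and 187 in WT, and the genotypes overlapped. The genotype effect on Wnt8a after RA exceeded that in serum/LIF by 2.42 ± 0.37, adjusted p = 2.48e-05. Wnt10b, a ligand that acts through β-catenin in bone and fat precursors, had 104, 144 and 93.96 in DKO and 27.9, 17.1 and 35.9 in WT, without overlap between the genotypes (2.08 ± 0.61, adjusted p = 0.00792). Wnt3 had 56.9, 60.6 and 71.6 in DKO and 12.6, 24.1 and 23.3 in WT (1.65 ± 0.26, adjusted p = 1.51e-05), and its genotype effects in the 2 conditions were not called different (difference 0.51 ± 0.37, adjusted p = 0.321). Wnt9a had 703, 761 and 619 in DKO and 329, 363 and 317 in WT, 2.07-fold on the means (1.04 ± 0.19, adjusted p = 9.87e-05). Wnt9b, named here after its values were seen because its means stayed under 100, had 66.4, 42.2 and 69.8 in DKO and 7.21, 10.04 and 10.8 in WT (2.53 ± 0.59, adjusted p = 0.0013). Wnt7b had 54.99, 88.2 and 102 in DKO and 52.2, 46.2 and 41.3 in WT (0.76 ± 0.24, adjusted p = 0.0144), and this call was lost without replicate 2 of DKO after RA (adjusted p = 0.0601) or without replicate 3 of it (adjusted p = 0.101), with 0.00252 to 0.101 over 21 alternatives.

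Wnt5a went the other way: it had 702, 687 and 653 normalised counts in the DKO libraries after RA, against 1105, 1102 and 1155 in the WT libraries, which did not overlap (-0.72 ± 0.18, adjusted p = 0.00267). Wnt1, the neural tube ligand, had 53.1, 55.1 and 57.3 in DKO and 72.95, 109 and 71.8 in WT after RA, and the groups did not overlap but the difference was not called (-0.58 ± 0.57, adjusted p = 0.435). Wnt6 and Wnt11 had adjusted p-values of 0.0659 and 0.146 after RA and were not called here, while the authors' deposited table lists them as higher in DKO with adjusted p-values of 0.0407 and 0.0224. For Wnt3a in serum/LIF, the authors' deposited table lists a log2 fold change of -0.96 with an adjusted p of 0.0268. The fit used here gave -0.93 ± 0.39, adjusted p = 0.072, with 32.1, 37.6 and 36.05 normalised counts in DKO and 57.3, 81.7 and 67.3 in WT. These were the only 3 of the 49 members whose call differed between the 2 sources in the 4 comparisons both hold.

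**Figure D2:**
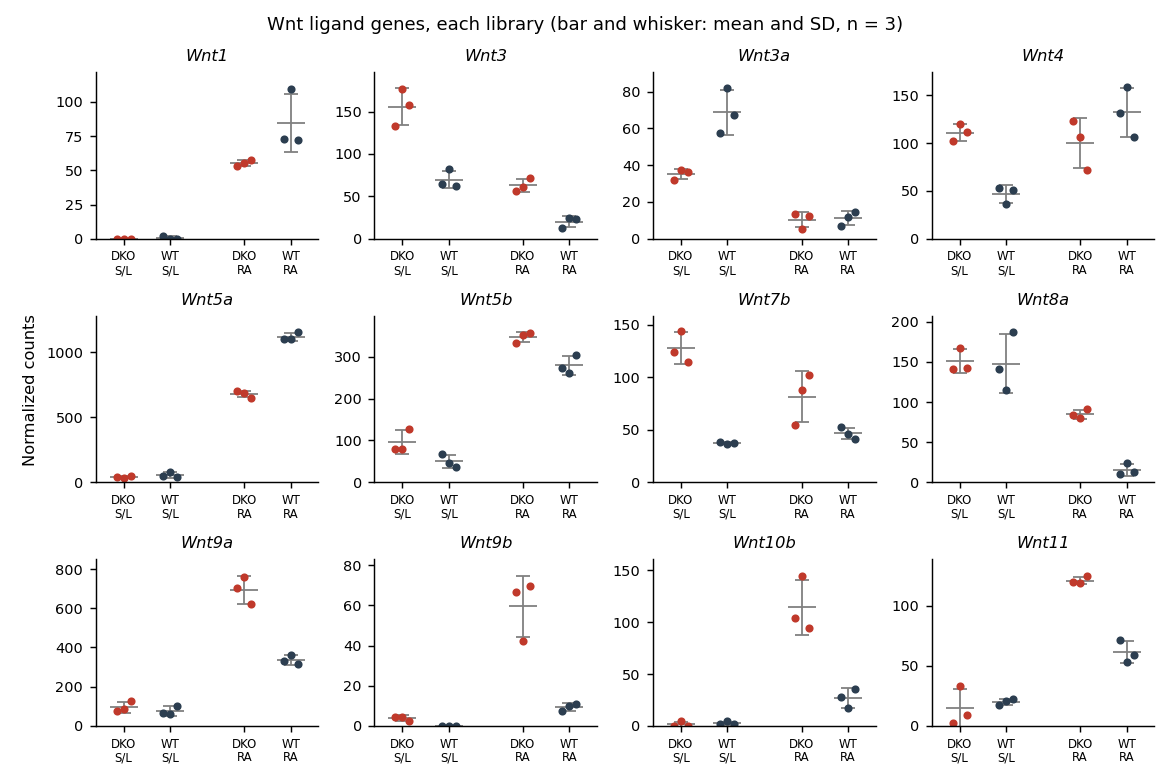
Normalised counts of 12 Wnt ligand genes in each library, with the mean and SD of each group of 3, where S/L is serum/LIF and red points are DKO and dark points WT. Wnt7b, Wnt3 and Wnt4 sit higher in DKO in serum/LIF, and Wnt8a, Wnt9a, Wnt9b and Wnt10b sit higher in DKO after RA, where Wnt5a sits lower.

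Several ligand genes are close neighbours in the mouse genome, and the neighbours did not always move together. Wnt9b (chr11:103727363-103749821, minus strand, mm10) and Wnt3 (chr11:103774175-103818021, plus strand) lie 24353 bases apart with no other gene of the table between them, and both were called higher in DKO in both conditions. In serum/LIF the Wnt9b call rests on 10 reads in DKO and 0 in WT, and it was lost under 2 of 20 alternatives. Wnt10b (chr15:98771752-98778150, minus strand) and Wnt1 (chr15:98789857-98793830, plus strand) lie 11706 bases apart. Wnt10b was called higher in DKO after RA and Wnt1, whose 3 DKO libraries were the lower ones, was not called. Wnt3a (chr11:59248036-59290751, minus strand) and Wnt9a (chr11:59306930-59333552, plus strand) lie 16178 bases apart on opposite strands. In WT, Wnt3a was 6.14-fold lower after RA than in serum/LIF, while Wnt9a was 4.39-fold higher.

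Ligand export showed the clearest single difference in serum/LIF. Wls, the carrier that takes Wnt proteins to the cell surface (chr3:159839650-159937927, plus strand), had 947, 991 and 1039 normalised counts in the DKO libraries, against 401, 320.2 and 327 in the WT libraries. It was 2.84-fold higher on the means (1.51 ± 0.066, adjusted p = 9.33e-15), the smallest adjusted p among the 49 members in that comparison. After RA it had 6125, 6071 and 5872 in DKO and 5890.4, 5774 and 5759.9 in WT, and was not called (0.05 ± 0.066, adjusted p = 0.554). It was 6.07-fold higher after RA in DKO and 16.6-fold higher in WT, so the genotypes differed before RA and lay within 1.04-fold after it. Porcn, the enzyme that attaches the lipid to Wnt proteins, had 1081, 1080.0 and 1041 in DKO and 878, 866 and 758 in WT after RA and was higher in DKO (0.36 ± 0.07, adjusted p = 0.000222). In serum/LIF Porcn was not called (0.17 ± 0.07, adjusted p = 0.0707).

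Of the 10 Frizzled receptor genes, 6 were higher and 1 was lower in DKO in serum/LIF, where 33.2% of all tested genes were called. After RA, 2 were higher and 7 were lower, where 42.7% of all genes were called, and the interaction was called lower for 8 and higher for 1. Fzd1 had 183, 138 and 185 normalised counts in DKO in serum/LIF, against 97.4, 94.6 and 86.03 in WT, with every DKO library above every WT library (0.85 ± 0.095, adjusted p = 1.62e-07). After RA it had 2656, 2544 and 2669 in DKO and 3449.6, 3693 and 3718 in WT, where the order was the opposite and again without overlap (-0.46 ± 0.095, adjusted p = 0.000352). Fzd2, named after its values were seen because its change fell under the size limit of 0.58, was the most abundant Frizzled after RA. It had 2207, 1978 and 2302 in DKO and 1437, 1439 and 1478 in WT in serum/LIF (0.57 ± 0.047, adjusted p = 8.5e-10), and 9249, 9655 and 9147 in DKO and 13236, 13315 and 13165 in WT after RA (-0.50 ± 0.047, adjusted p = 6.18e-09). Its interaction of -1.07 ± 0.067, adjusted p = 1.21e-11 had the smallest adjusted p of all members.

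Fzd3 and Fzd6, the receptors best known for planar cell polarity and axon growth in mice, followed the same course. Fzd6 had 1704, 1577 and 1813 normalised counts in DKO after RA, against 2934, 2674 and 2779 in WT (-0.72 ± 0.073, adjusted p = 2.07e-08), and 548, 460.1 and 513 in DKO and 407, 415 and 394 in WT in serum/LIF (0.32 ± 0.073, adjusted p = 0.00138). Fzd3 had 1840.2, 1831 and 1867 in DKO and 2865, 2756 and 3049 in WT after RA (-0.65 ± 0.069, adjusted p = 5.55e-08). Both were lower in every DKO library than in any WT library after RA. In serum/LIF the Fzd3 libraries of the genotypes overlapped and its call (0.19 ± 0.069, adjusted p = 0.0327) was lost when any of 4 libraries was left out, at adjusted p = 0.177 and 0.0744 without replicate 1 or 2 of DKO and 0.0551 and 0.21 without replicate 2 or 3 of WT, and at 0.0793 with the serum/LIF libraries alone, within 0.00912 to 0.21 over 21 alternatives.

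Fzd9 had 37.9, 49.6 and 48.3 normalised counts in DKO after RA, against 91.9, 78.3 and 61.01 in WT (-0.74 ± 0.20, adjusted p = 0.00499). Fzd7, the leading Frizzled of undifferentiated cells, was 1.23-fold lower in DKO after RA (-0.30 ± 0.045, adjusted p = 9.05e-06) and did not pass the test in serum/LIF (0.02 ± 0.045, adjusted p = 0.832). Fzd4, which is also the receptor for norrin, was lower after RA with an adjusted p of 0.0484, close to the threshold. That call was lost without replicates 1, 2 or 3 of DKO after RA (adjusted p = 0.0934, 0.104 and 0.098), replicates 1 or 3 of WT after RA (0.0805 and 0.168), replicate 1 of DKO or replicate 2 of WT in serum/LIF (0.0527 and 0.0539), with a pseudocount of 0.5 (0.0538) and with no filter (0.0511), within 2.21e-05 to 0.168 over 21 alternatives.

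Fzd5, Fzd8 and Fzd10 were not called lower in DKO after RA. Fzd5 had 2952, 3017 and 3112 normalised counts in DKO in serum/LIF, against 3459.7, 3515 and 3723 in WT (-0.24 ± 0.063, adjusted p = 0.00518), and 485, 557 and 494 in DKO and 349, 343 and 353 in WT after RA (0.55 ± 0.063, adjusted p = 1.41e-07). It was the one Frizzled gene that was lower in DKO before RA and higher after it. Fzd8 had 181, 150.2 and 235 in DKO and 107, 96.7 and 107 in WT in serum/LIF (0.84 ± 0.12, adjusted p = 8.69e-06). After RA Fzd8 had 1023, 942 and 1018 in DKO and 768, 769.7 and 777 in WT (0.36 ± 0.12, adjusted p = 0.0201), a call that was lost without replicate 1 or 3 of DKO after RA (adjusted p = 0.0704 and 0.0682) or replicate 1 of WT after RA (0.0552), within 8.88e-05 to 0.0704 over 21 alternatives. Fzd10 had 626, 594 and 602 in DKO and 371, 441 and 363 in WT in serum/LIF (0.64 ± 0.11, adjusted p = 5.17e-05), and after RA it was not called (0.22 ± 0.11, adjusted p = 0.107). The opposite-strand transcript Fzd10os was not called in either condition (adjusted p = 0.0682 and 0.986). The labels do not say whether the libraries keep strand.

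**Figure D3:**
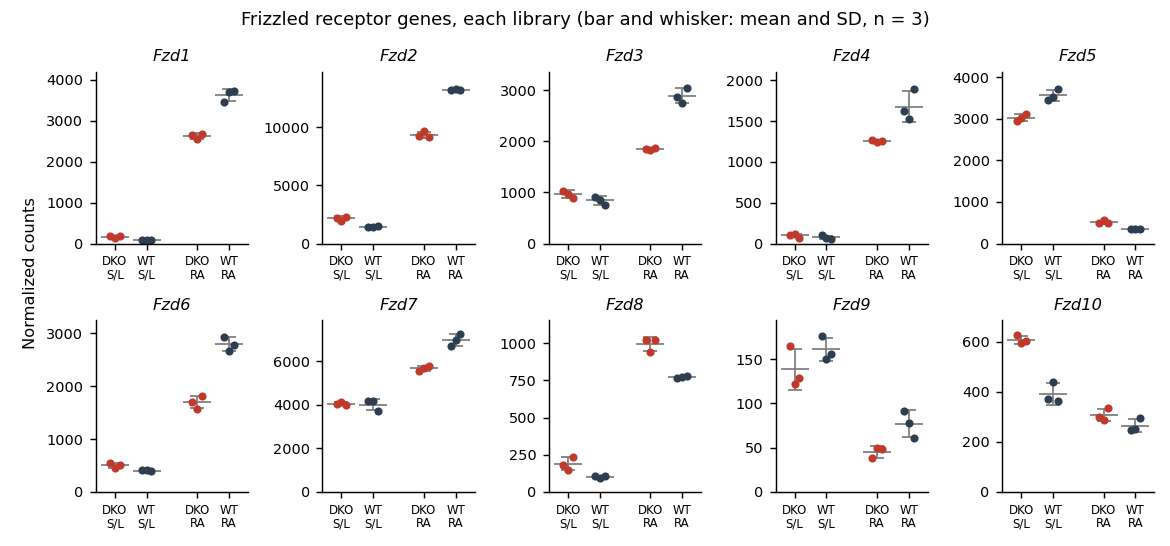
Normalised counts of the 10 Frizzled receptor genes in each library, with the mean and SD of each group of 3, where S/L is serum/LIF and red points are DKO and dark points WT. Fzd1, Fzd2 and Fzd6 sit higher in DKO in serum/LIF and lower in DKO after RA, and Fzd5 shows the opposite order at a level that is far lower after RA.

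The co-receptors and the ligases that remove receptors differed little. Lrp5 was 1.14-fold higher in DKO in serum/LIF (0.19 ± 0.052, adjusted p = 0.00592), and Lrp6 was 1.09-fold higher in DKO after RA (0.12 ± 0.045, adjusted p = 0.0318). Znrf3, an E3 ligase that takes Frizzleds off the cell surface, was 1.19-fold higher in DKO after RA (0.26 ± 0.081, adjusted p = 0.0118). Its relative Rnf43 was at a mean of 14.5 to 31.9 normalised counts over the groups and was not called in any comparison. The Znrf3 and Lrp6 calls were lost without replicate 2 of WT after RA (adjusted p = 0.137 and 0.135) and in edgeR on the reads of the other 11 libraries (0.153 and 0.129). The Lrp6 call was also lost without replicate 3 of DKO (0.16) or replicate 1 of WT (0.0828) after RA. Over 21 alternatives the adjusted p ran between 0.00224 and 0.153 for Znrf3 and between 0.0116 and 0.16 for Lrp6.

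Of the 8 secreted antagonists, 1 was higher and 2 were lower in DKO in serum/LIF, and 3 were lower and none was higher after RA. The 3 called of 8 were near the share of all tested genes in both conditions, 33.2% in serum/LIF and 42.7% after RA. Sfrp1, the antagonist with the highest level per kilobase in every group, had 1332, 1445 and 1375 normalised counts in the DKO libraries after RA, against 2661, 2923 and 2580.3 in the WT libraries. It was 1.97-fold lower (-0.97 ± 0.054, adjusted p = 9.07e-13), with no overlap. In serum/LIF it had 2674, 2685 and 2481 in DKO and 2476, 2489.6 and 2367 in WT and was not called (0.10 ± 0.054, adjusted p = 0.187), and the 2 genotype effects differed by -1.07 ± 0.077, adjusted p = 1.6e-10. Sfrp2 had 319, 321 and 342 in DKO and 873, 858 and 789 in WT after RA, 2.57-fold lower (-1.36 ± 0.095, adjusted p = 3.72e-11). It was also lower in serum/LIF, at 507, 405 and 527 in DKO and 672, 707 and 643 in WT (-0.50 ± 0.095, adjusted p = 0.00021). For Sfrp1 and Sfrp2 the DKO libraries after RA were the lowest of the 4 groups.

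Sfrp5 had 34.4, 28.2 and 36.05 normalised counts in DKO in serum/LIF, against 51.6, 64.5 and 76.7 in WT (-0.94 ± 0.20, adjusted p = 0.000927), and was not called after RA (-0.42 ± 0.20, adjusted p = 0.103). Frzb, a further Frizzled-related Wnt binder known from cartilage, was higher in DKO in serum/LIF. It had 82.6, 72.8 and 63.1 in DKO and 11.5, 19.3 and 7.48 in WT, 5.71-fold higher (2.51 ± 0.36, adjusted p = 5.87e-06). Frzb is named after its values were seen, since its group means stayed under 100. After RA the Frzb libraries overlapped, at 28.4, 65.2 and 60.9 in DKO and 45.03, 80.3 and 57.4 in WT. Dkk3, a member of the Dickkopf family that does not act like the Lrp6 inhibitor Dkk1, had 648, 656 and 717 in DKO and 1063, 1055 and 1117 in WT after RA (-0.68 ± 0.14, adjusted p = 0.000257). Dkk1 and Dkk2 had group means of 7.43 to 33.1 and were called in neither genotype comparison.

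**Figure D4:**
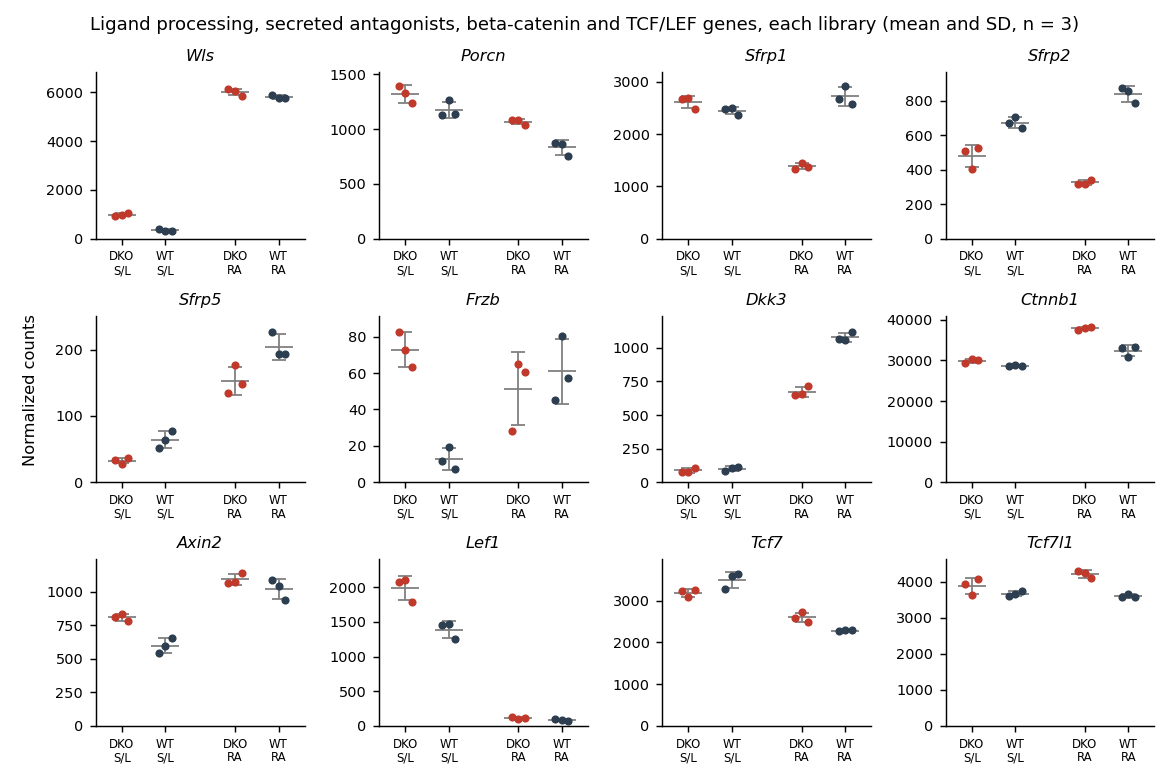
Normalised counts of 12 genes of ligand processing, secreted antagonists, β-catenin and TCF/LEF factors in each library, with the mean and SD of each group of 3, where S/L is serum/LIF and red points are DKO and dark points WT. Sfrp1, Sfrp2 and Dkk3 sit lower in DKO after RA, and Wls and Frzb sit higher in DKO in serum/LIF.

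Within β-catenin and its destruction complex the differences were small. Ctnnb1 had 37588, 38085 and 38124 normalised counts in DKO after RA, against 33144, 30968 and 33202 in WT, 1.17-fold higher (0.23 ± 0.032, adjusted p = 3.17e-06), and was not called in serum/LIF (0.06 ± 0.032, adjusted p = 0.158). Its exons overlap those of Ulk4 on the opposite strand. Axin2 had 813, 833 and 778 in DKO and 542, 592 and 655 in WT in serum/LIF, where all DKO libraries were above all WT libraries (0.44 ± 0.077, adjusted p = 7.79e-05). After RA Axin2 had 1064, 1069 and 1141 in DKO and 1086, 1039 and 940.3 in WT and the genotypes overlapped (0.10 ± 0.077, adjusted p = 0.33). Axin1, its constitutive relative, was called in neither condition. Apc was 1.16-fold higher in DKO in serum/LIF (0.22 ± 0.068, adjusted p = 0.0196) and 1.32-fold higher after RA (0.41 ± 0.068, adjusted p = 7.07e-05), the first call being lost without replicate 1 or 2 of DKO (adjusted p = 0.0851 and 0.0634) or replicate 3 of WT (0.105) in serum/LIF, within 0.00105 to 0.105 over 21 alternatives. The target factor Sp5 had 34.4, 39.9 and 81.1 in DKO and 32.5, 15.04 and 46.8 in WT in serum/LIF and 47.4, 38.6 and 28.6 in DKO and 27.02, 54.2 and 23.3 in WT after RA. Its libraries overlapped in both conditions and it was not called in any comparison (adjusted p = 0.177 and 0.73 between the genotypes).

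Among the TCF/LEF factors, Lef1 was the one gene higher in DKO in both conditions. Lef1, which mostly activates targets, had 2075, 2099.6 and 1787 normalised counts in DKO in serum/LIF, against 1451, 1469 and 1247 in WT (0.52 ± 0.11, adjusted p = 0.000869). After RA it had 128, 105 and 111 in DKO and 97.3, 82.3 and 76.3 in WT (0.42 ± 0.11, adjusted p = 0.00361). The libraries of the genotypes did not overlap in either condition, and after RA the call was lost when only the RA libraries were fitted (adjusted p = 0.0662), within 0.00108 to 0.0662 over 21 alternatives. Tcf7, also mostly an activator, had 3235, 3087 and 3251 in DKO and 3283, 3592 and 3635 in WT in serum/LIF (-0.13 ± 0.049, adjusted p = 0.0367), and 2583, 2718 and 2501 in DKO and 2264, 2292 and 2293 in WT after RA (0.19 ± 0.049, adjusted p = 0.00316). The serum/LIF call of Tcf7 was lost without replicate 1 or 2 of DKO (0.0611 and 0.126) or replicate 2 or 3 of WT (0.134 and 0.151), within 0.0097 to 0.151 over 21 alternatives. Tcf7l1, the main repressor of the family in ES cells, had 4309, 4249 and 4099 in DKO and 3593, 3658 and 3575 in WT after RA (0.23 ± 0.045, adjusted p = 0.000245). It had 3934, 3631 and 4074 in DKO and 3603, 3651 and 3739.6 in WT in serum/LIF and was not called there (0.08 ± 0.045, adjusted p = 0.174). Tcf7l2 had 382, 391 and 395 in DKO and 362, 356 and 287 in WT in serum/LIF and 823, 709 and 785 in DKO and 702, 710.5 and 673 in WT after RA, and passed the test in neither (0.07 and 0.212).

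RA changed most of the module in both genotypes, and most genes of the table with it. In DKO, 28 members were higher and 13 were lower after RA than in serum/LIF, 83.7% of those tested, where 78.3% of all tested genes were called, 40.2% higher and 38.2% lower. In WT, 31 were higher and 11 were lower, 85.7% of those tested, where 80.6% of all genes were called, 41.4% higher and 39.2% lower. The RA and serum/LIF libraries did not overlap for 44 members in DKO, against 80.3% of all genes, and for 43 in WT, against 81.5%. The median log2 fold change of the members was 0.70 in DKO and 0.95 in WT, and that of all genes was 0.035 in DKO and 0.037 in WT. The share of members called was close to the background. More of the called members were higher than lower in both genotypes, but this split was not tested. Wnt1, Wnt9b and Wnt10b passed the filter only through RA libraries, and Sfrp4 only through serum/LIF libraries. The filter thus set the direction of these genes.

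Among the members that rose, Wnt1 had 53.1, 55.1 and 57.3 normalised counts in DKO after RA, against 0, 0 and 0 in DKO in serum/LIF. In WT it had 72.95, 109 and 71.8 after RA and 1.91, 0 and 0 in serum/LIF. In DKO the 180 reads after RA against 0 in serum/LIF made Wnt1 at least 48.1-fold higher, and in WT the 161 reads of 2 libraries against 2 reads of 3 libraries gave a ratio of 110, whose counting interval at 95% spans 30 to 918. Fzd1 was 15.5-fold higher in DKO (3.96 ± 0.095, adjusted p = 2.74e-21) and 39.1-fold higher in WT (5.27 ± 0.095, adjusted p = 5.93e-24). Fzd4 had 1619, 1522 and 1889 after RA and 99.3, 68.8 and 60.8 in serum/LIF in WT, and was 12.7-fold higher in DKO and 21.98-fold higher in WT. Wnt5a was 16.8-fold higher after RA in DKO, where it had 43.6, 30.5 and 47.3 in serum/LIF, and 19.8-fold higher in WT, where it had 45.8, 79.5 and 44.9 in serum/LIF. Dkk3 was 7.53-fold higher in DKO and 10.6-fold higher in WT. Fzd1, Fzd2, Fzd3, Fzd4, Fzd6, Fzd7 and Fzd8 rose in both genotypes, and the rise was smaller in DKO for each of them by the interaction test, from -1.31 ± 0.13 for Fzd1 to -0.31 ± 0.063 for Fzd7. The interaction calls of Fzd8 and Fzd10 were lost under 9 and 8 of 20 alternatives.

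Among the members that fell, Lef1 was 17.4-fold lower after RA in DKO (-4.11 ± 0.11, adjusted p = 2.98e-20) and 16.3-fold lower in WT (-4.01 ± 0.11, adjusted p = 3.09e-20), and the 2 responses were not called different (adjusted p = 0.7). Fzd5 was 5.91-fold lower in DKO and 10.2-fold lower in WT, which did differ (0.79 ± 0.089, adjusted p = 2.63e-07). Wnt8a was 1.77-fold lower in DKO and 9.52-fold lower in WT. Wnt3 was 2.47-fold lower in DKO and 3.49-fold lower in WT. Fzd9 was 3.06-fold lower in DKO and 2.09-fold lower in WT, with 165, 122 and 128 in DKO and 176, 150.4 and 156 in WT in serum/LIF. Sfrp4 was at 6 reads after RA and 88 in serum/LIF over the DKO libraries, which is 0.0546 times the level with a counting interval at 95% that spans 0.0195 to 0.124.

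Sfrp1 and Sfrp2 changed after RA in opposite called directions in the 2 genotypes, and Frzb and Wnt4 had a called change in one of them. Sfrp2 fell after RA in DKO (-0.54 ± 0.095, adjusted p = 1.51e-05) and rose in WT (0.32 ± 0.095, adjusted p = 0.00392). Sfrp1 fell in DKO (-0.92 ± 0.054, adjusted p = 1.24e-13) and rose slightly in WT (0.15 ± 0.054, adjusted p = 0.0131). The Sfrp1 rise in WT was lost without replicate 3 of WT in serum/LIF (adjusted p = 0.0558) and without replicate 2 of WT after RA (0.104), and in edgeR and DESeq2 on the reads of 11 libraries (0.108 and 0.0859), within 0.00516 to 0.108 over 21 alternatives. The change of Frzb was not called in DKO (-0.57 ± 0.36, adjusted p = 0.149), it rose in WT (2.22 ± 0.36, adjusted p = 4.67e-06), and the 2 responses differed by -2.79 ± 0.51, adjusted p = 0.000161. Wnt4 was likewise not called in DKO (-0.18 ± 0.23, adjusted p = 0.483) and rose in WT (1.47 ± 0.23, adjusted p = 2.46e-06), a difference of -1.65 ± 0.32, adjusted p = 0.000349. Wnt10b rose in both, 72.9-fold in DKO and 10.01-fold in WT on group means that rest on 4 reads in DKO and 8 reads in WT in serum/LIF.

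**Figure D5:**
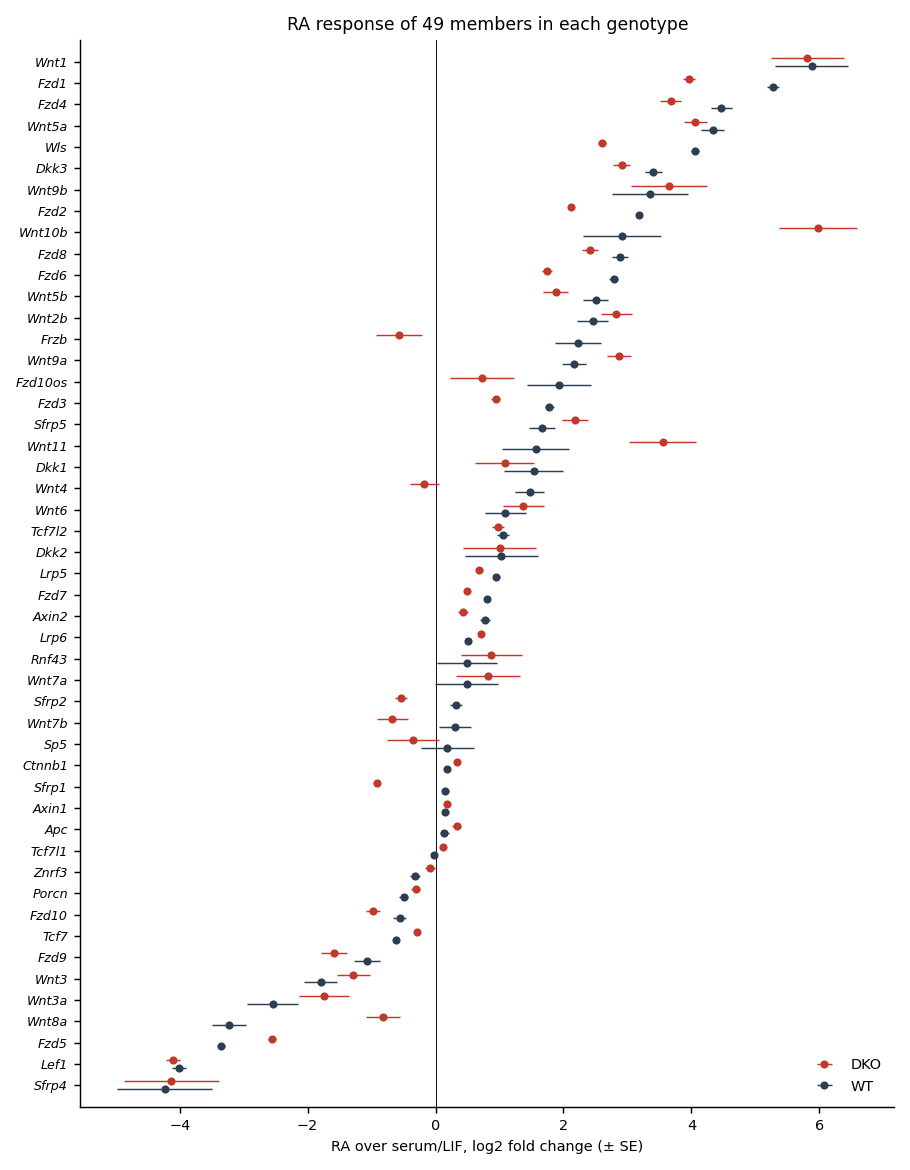
Log2 fold change of RA over serum/LIF for the 49 tested members in DKO (red, upper point of each pair) and WT (dark, lower point), with whiskers of 1 SE from the limma fit, sorted by the WT value. The Frizzled genes that rise do so less in DKO, such as Fzd1 at 3.96 in DKO and 5.27 in WT, and Frzb, Wnt4, Sfrp1 and Sfrp2 lie on opposite sides of zero.

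Other genes of the pathway, taken from lists by role, gave context for the members. Of all tested genes, 33.2% were called in serum/LIF and 42.7% after RA. Among 21 transducers and destruction complex genes, 5 were higher and 1 was lower in DKO in serum/LIF, and 9 were higher and 3 lower after RA. They included Apc2, a relative of Apc, in serum/LIF (0.57 ± 0.13, adjusted p = 0.00118) and Jup, the β-catenin relative plakoglobin, after RA (0.60 ± 0.045, adjusted p = 1.23e-10). Of 19 nuclear cofactors, 3 were higher and 3 lower in serum/LIF, and 11 were higher and none lower after RA, when the corepressor gene Tle4 was higher (0.39 ± 0.043, adjusted p = 7.07e-08), having been lower in serum/LIF (-0.33 ± 0.043, adjusted p = 1.48e-06). Of 7 R-spondins and receptors, which raise Frizzled levels by blocking Znrf3 and Rnf43, 2 were higher in serum/LIF, and after RA 1 was higher and 2 were lower. Lgr5, the R-spondin receptor and Wnt target, had 178, 191 and 178 normalised counts in DKO after RA, against 422, 386 and 396 in WT (-1.13 ± 0.30, adjusted p = 0.00372).

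Of 19 further antagonists tested, 5 were higher and 3 lower in DKO in serum/LIF, where 33.2% of all tested genes were called. After RA, 7 were higher and 2 lower, where 42.7% of all tested genes were called. Trabd2b, a protease that inactivates Wnt proteins, had 1018, 1039 and 1134 normalised counts in DKO after RA, against 447, 425 and 480.0 in WT (1.24 ± 0.16, adjusted p = 7.94e-07), and was higher in serum/LIF too (1.11 ± 0.16, adjusted p = 5.01e-06). Shisa3, which holds back Frizzled maturation, had 2319, 2235 and 2127 in DKO and 5299.6, 5302 and 5566 in WT after RA (-1.27 ± 0.12, adjusted p = 1.57e-08). Of 22 genes of non-canonical signalling and planar polarity, 7 were higher and 3 lower in serum/LIF, and 6 were higher and 6 lower after RA. The shares of all tested genes are those just given. Gpc4, a cell surface proteoglycan that binds Wnts, was higher in DKO in both (0.57 ± 0.057, adjusted p = 2.52e-08 in serum/LIF and 1.09 ± 0.057, adjusted p = 2.4e-13 after RA).

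Known Wnt targets did not share a direction. Of 24 tested, 8 were higher and 5 lower in DKO in serum/LIF, where 33.2% of all tested genes were called. After RA, 8 were higher and 3 lower, where 42.7% of all tested genes were called. Notum, a secreted Wnt deacylase and feedback target, had 767, 797 and 776 normalised counts in DKO in serum/LIF, against 1175, 1206 and 1238 in WT, and was lower in DKO (-0.63 ± 0.12, adjusted p = 0.000253), where Axin2 was higher. Sp8, a limb and forebrain factor, was higher in DKO in serum/LIF (1.02 ± 0.17, adjusted p = 4.66e-05) and lower after RA, at 112, 132 and 122 in DKO and 439.5, 468 and 459 in WT (-1.90 ± 0.17, adjusted p = 3.07e-09). Bmp4 had 296, 312 and 319 in DKO and 914, 876 and 821 in WT in serum/LIF (-1.49 ± 0.14, adjusted p = 5.54e-09). Nanog and Esrrb, which are also on the ES cell marker list, were the targets with the smallest adjusted p after RA and were higher in DKO (1.41 ± 0.068, adjusted p = 3.15e-13 and 1.27 ± 0.072, adjusted p = 1.48e-12).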

How the data were processed

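Groups were taken from the sample titles. Per the submitters' processing notes, the build was mm10 and the tools were DESeq2 1.44.0, STAR 2.7.11b, Trim Galore 0.6.10 and featureCounts of Subread 2.0.6. The setting for strand is not stated there. The deposited library columns hold a signal: whole reads divided by a size factor (100% of values whole within 0.01 in the 11 libraries examined). Per the file headers the table also holds the authors' log2 fold changes and adjusted p-values, which were compared with the calls made here.

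Because the deposited values are normalized, limma 3.58.1 in R 4.3.3 (empirical Bayes, trend and robust) was fitted to log2(value + 1) of the 15750 genes with 10 or more in at least 3 libraries (2151 genes fell below), with 1 mean per group, 12 libraries and no replicate block. Adjusted p-values are Benjamini-Hochberg over all genes tested. Reads recovered from 11 libraries served for folds against 0 (3 counts over the group), for 95% Poisson intervals, which cover counting error only, and for edgeR 4.0.16 and DESeq2 1.42.0 as alternatives added after the data were seen, since replicate 2 of WT after RA has a step too close to 1 to tell reads from normalized values. Exon lengths came from GENCODE M21. The tests were checked on data simulated from the WT means in serum/LIF, with genes changed only in DKO in serum/LIF. There limma recovered 92.3% of 91 genes changed by a log2 fold change of 1 and 100% of 109 changed by 2. False calls were 3.5% of calls in limma, 3.52% in edgeR and 6.8% in DESeq2. Smaller changes, the change after RA and the interaction were not simulated. Values in each library were given for members called between genotypes with a mean of 100 or more and a log2 fold change of 0.58 or more, the 5 higher and 5 lower members that changed most after RA in WT, and Axin2, Sp5, Lef1, Tcf7, Tcf7l1, Tcf7l2 and Ctnnb1. Those of Frzb, Fzd2, Porcn, Wnt1, Wnt3a and Wnt9b, which this rule leaves out, were added after their values were seen. Members and lists were chosen with earlier results of these data known. The second deposited table, of repeats, was not used here.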

Additional observations from a re-analysis of the deposited data

Results flagged for a closer look

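The genotype effect differed between RA and serum/LIF for 24 of the 49 tested members by the interaction term of the limma fit. Each value is the log2 fold change of DKO over WT after RA minus that in serum/LIF, with its SE and the adjusted p over 15750 genes, and 30.8% of those genes were called.

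Of the ligands and their export, the difference was -1.65 ± 0.32, adjusted p = 0.000349 for Wnt4, -1.46 ± 0.093, adjusted p = 2.01e-11 for Wls and -0.98 ± 0.34, adjusted p = 0.0331 for Wnt7b, a call lost in 5 of 20 alternatives. The difference was positive for Wnt9a (0.71 ± 0.27, adjusted p = 0.0465, a call lost in 9 of 20 alternatives), Wnt11 (1.99 ± 0.74, adjusted p = 0.0493, a call lost in 14 of 20), Wnt8a (2.42 ± 0.37, adjusted p = 2.48e-05) and Wnt10b (3.06 ± 0.86, adjusted p = 0.00862, a call lost in 1 of 20).

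The Frizzled genes gave -1.31 ± 0.13, adjusted p = 5.97e-08 for Fzd1, -1.07 ± 0.067, adjusted p = 1.21e-11 for Fzd2, -1.04 ± 0.10, adjusted p = 3.34e-08 for Fzd6 and -0.84 ± 0.098, adjusted p = 4.37e-07 for Fzd3. Smaller differences were -0.79 ± 0.23, adjusted p = 0.013 for Fzd4, -0.48 ± 0.17, adjusted p = 0.0419 for Fzd8, -0.42 ± 0.15, adjusted p = 0.0387 for Fzd10 and -0.31 ± 0.063, adjusted p = 0.00055 for Fzd7. The calls of Fzd8 and Fzd10 were lost in 9 and 8 of 20 alternatives. Fzd5 had the opposite sign (0.79 ± 0.089, adjusted p = 2.63e-07). The co-receptors had -0.26 ± 0.074, adjusted p = 0.00843 for Lrp5 and 0.19 ± 0.063, adjusted p = 0.0227 for Lrp6, a call lost in 6 of 20 alternatives.

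Among antagonists and effectors the difference was -2.79 ± 0.51, adjusted p = 0.000161 for Frzb, -1.07 ± 0.077, adjusted p = 1.6e-10 for Sfrp1, -0.86 ± 0.13, adjusted p = 2.66e-05 for Sfrp2 and -0.34 ± 0.11, adjusted p = 0.0181 for Axin2, a call lost in 2 of 20 alternatives. The difference was 0.17 ± 0.045, adjusted p = 0.00629 for Ctnnb1 and 0.32 ± 0.069, adjusted p = 0.000908 for Tcf7.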

How the results depend on the processing

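The alternatives numbered 20 or 21 a comparison. They varied the pseudocount, the filter, the scaling, the groups fitted, the replicate block, each library left out and the count tools. No log2 fold change reversed for a member in a comparison where it was called. With 1 library left out, the members called higher and lower in DKO numbered 15 to 20 and 3 to 5 in serum/LIF and 13 to 18 and 10 to 11 after RA. Those called after RA against serum/LIF numbered 26 to 29 and 12 to 13 in DKO and 30 to 32 and 11 in WT, and for the interaction 6 to 8 and 13 to 16. Under edgeR on 11 libraries the interaction was called higher for 5 members, against 8, and the cause was not tested. Single members were followed where the limma fit above called them, with Axin2, Sp5, Lef1, Tcf7, Tcf7l1, Tcf7l2 and Ctnnb1 followed in every comparison. Of their alternative values, 15 of 523 in serum/LIF, 23 of 628 after RA and 9 of 878 for RA in DKO ended a call. So did 4 of 920 for RA in WT and 54 of 559 for the interaction. Among the followed members, 2 values in serum/LIF and 1 for the interaction made a call. Calls that other members gained were not counted here.

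The replicate numbers did not pair the libraries: correlations of same-numbered deviations from the group means ran between -0.032 and 0.051, and 5 of 12 libraries correlated best with their own number. With the numbers as a replicate block, 17 members were higher and 3 lower in serum/LIF (Tcf7 at adjusted p = 0.05 lost its call), 16 higher and 11 lower after RA, 28 and 13 for RA in DKO, 31 and 11 for RA in WT, and 8 and 17 for the interaction.

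Single libraries ended some calls. For Wnt11, 11 of the 12 libraries ended the interaction call when left out (adjusted p = 0.0618 to 0.103), all but replicate 2 of DKO in serum/LIF, and so did a pseudocount of 0.5 (0.0607), edgeR (0.073) and DESeq2 (0.0684). edgeR also ended the interaction call of Wnt10b (0.0719). Other interaction calls ended without 1 library for Fzd8 (9 libraries, 0.0535 to 0.138), Fzd10 (8 libraries, 0.0516 to 0.108), Wnt9a (7 libraries, 0.0846 to 0.146, and also at 0.0519 with a pseudocount of 0.5 and 0.0525 with no filter), Wnt7b (5 libraries, 0.0521 to 0.114), Lrp6 (4 libraries, 0.0543 to 0.0764, and also in edgeR at 0.0586 and DESeq2 at 0.053) and Axin2 (replicate 1 of WT in serum/LIF or after RA, 0.0579 and 0.0594). For RA in DKO, Dkk1 (5 libraries, 0.0576 to 0.17), Wnt7b and Tcf7l1 (replicate 2 in serum/LIF or 1 after RA, 0.0623 to 0.129 and 0.0661 to 0.123) lost their calls. Depth limits Wnt1, Wnt9b and Wnt10b in serum/LIF, which rest on 0 to 10 reads a group.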
